A study of Salmo salar with 64 samples.

Results

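The pituitary-enriched genes described here are 150 rows of a count table of 81574 annotated Atlantic salmon genes whose RNA was concentrated in the pituitary. A gene was kept when its mean level in pituitary was at least 20 times its mean in each of brain, ovary and liver, the 9 genes numbered as the main pituitary hormones were dropped, and the 150 genes of highest pituitary level were taken from the 516 that remained of 525. Levels for this choice were CPM, a gene's counts scaled to the same total in every library, averaged over the 16 libraries of a tissue. Tissue levels therefore chose the members and are described without a test. No contrast between time points entered the choice, but the pituitary mean spans all of them. A member high at only some time points could pass through those.

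The fish were female Atlantic salmon broodstock about 36 months after fertilization, kept in tanks as 1 management group, and the labels give no further treatment. 4 fish were sampled at T1, immediately before a long-day light regime that brings on maturation, and 4 at each of T2, T3 and T4 under that regime, at intervals of 2 weeks. Messenger RNA of pituitary, brain, ovary and liver gave 64 libraries, of which the 16 from pituitary carry the comparisons below. Fish kept off the regime are not among the samples used here, so time, season, growth and light cannot be told apart, and each library is bulk tissue, in which fewer cells of a type and less RNA per cell cannot be told apart either.

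The pituitary is the gland below the brain whose endocrine cells release the hormones of growth, stress, colour, thyroid and reproduction. In teleosts these cells lie in zones of the adenohypophysis, and hypothalamic nerve fibres reach them directly. Each cell type depends on a set of developmental transcription factors that stay on in the adult gland, on enzymes that cut prohormones inside secretory granules, and on receptors and channels that couple signals to release. The question asked of the members was which of this equipment changed level across T1 to T4 and which stayed level.

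The members' mean levels in pituitary ran from 63964 CPM for LOC100169856 to 8.93 CPM for prodhb, with a median of 40.7 CPM. 9 members were above 1000 CPM, 31 were between 100 and 1000 CPM and 110 were below 100 CPM. 139 members matched the RefSeq annotation of the salmon assembly Ssal_v3.1, where 133 were protein coding, 3 were pseudogenes and 3 were long noncoding RNAs. 48 members carried a gene symbol, 91 were known only by a LOC number and 11 had no symbol. The tissue of next highest level was brain for 103 members, ovary for 37 and liver for 10, and the ratio of pituitary to that tissue had a median of 58.9 and a range of 20.1 to 675. The ratio was at least 50 for 79 members, at least 100 for 48 and at least 500 for 12, as the plot of levels in the 4 tissues shows. The paper left its brain libraries out of later analyses, because replicates disagreed and the brain regions taken differed. Ratios to brain rest on those libraries and are less certain. In them pcsk2, for example, ran from 28.2 to 218 CPM.

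**Figure D1:**
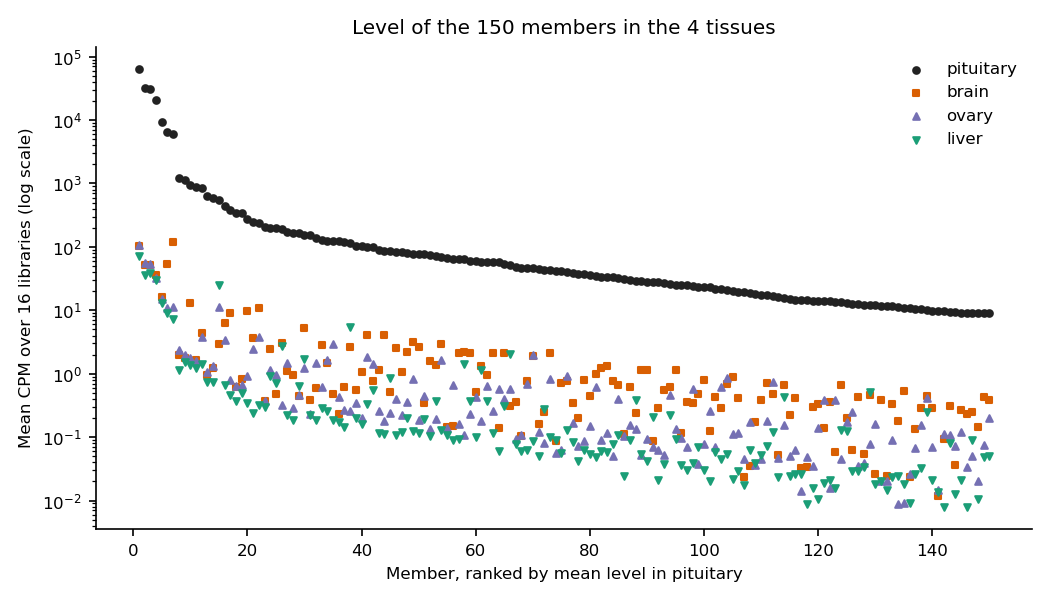
Mean level of each of the 150 members in pituitary, brain, ovary and liver, in CPM of the library total on a log axis, against the member's rank in pituitary; each point is the mean over 16 libraries of a tissue. Pituitary points fall from 63964 to 8.93 CPM, and the points of the other tissues lie at least 20-fold lower because the rule chose them so.

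Close to the limits of the rule, LOC106601042, LOC106601905 and prodhb were kept at 9.04, 9.03 and 8.93 CPM, and LOC106576632, LOC106573500 and gipc3 fell just outside at 8.57, 8.43 and 8.41 CPM. For the tissue ratio, LOC106586155, LOC106608662 and LOC106588945 were kept at 20.1, 20.2 and 20.4, and LOC106599210, LOC106584330 and LOC106604892 missed at 19.6, 19.3 and 19.1. The members thus shade into further genes of the same kind.

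Most RNA of the members came from a few genes, and the label of genes beyond the hormones held only in part. 6 members carried the annotation hormone activity in the study's gene ontology sets, namely LOC100169856, LOC100136491, LOC100510784, LOC106607462, LOC106610036 and LOC106610688. These 6 held 85.2% of the members' counts in pituitary, and the 15 most abundant members held 95.4%. The members took 10.1 to 26.0% of all counts in a pituitary library, the 6 with a hormone annotation took 7.56 to 23.2%, and the other 144 took a steadier 2.41 to 3.15%. The 9 dropped hormone genes took 18.0 to 26.5%. The supplement describes its gene ontology data as enrichments among genes the study had found changed in expression or methylation. The count of 6 is therefore a lower limit, and the other 144 were not shown to lack hormone genes. grp, among those 144, encodes a peptide precursor.

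In mean level the 5 leading members were LOC100169856 (63964 CPM), LOC100136491 (31858 CPM), LOC100510784 (31126 CPM), LOC106607462 (20603 CPM) and LOC106610036 (9411 CPM), all with the hormone annotation. LOC106562528 followed at 6583 CPM and pcsk2, the prohormone convertase that cuts peptide hormone precursors in granules, at 5941 CPM. epdl2, an ependymin-like secreted glycoprotein, reached 1202 CPM and scpp1, a secretory calcium-binding phosphoprotein, 1132 CPM. Below 1000 CPM came LOC106587169 (948 CPM), LOC106568494 (893 CPM), elapor1, an endosome-lysosome membrane protein (849 CPM), si:ch211-119o8.4 (623 CPM), vwa5b2 (588 CPM) and LOC106576235 (547 CPM). CPM values are not divided by gene length, so this order is one of reads and not of molecules.

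Low counts of the most abundant members appeared in the other tissues at a nearly constant share of the pituitary level. In 10 of the 15 leading members every other tissue stood below 0.25% of the pituitary mean. The medians over those 15 members were 0.175% in brain, 0.175% in ovary and 0.134% in liver. The dropped hormone genes lay in the same band, at 0.156 to 0.225% in brain, 0.154 to 0.200% in ovary and 0.115 to 0.148% in liver. The other 5 of the 15 stood above it. They were pcsk2, which brain neurons also use, at 2.04% in brain, LOC106587169 at 1.38% and LOC106562528 at 0.822% in brain, elapor1 at 0.521% in brain and 0.447% in ovary, and LOC106576235, whose next tissue was liver at a ratio of 22.0. Over all 150 members, 89 exceeded 1% of their pituitary level in brain, 36 in ovary and 12 in liver. The source of the low counts was not tested.

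The tissue label was borne out by the 9 hormone genes above and by low markers of the neighbouring tissues. 11 genes of neurons and glia summed to 32.6 to 97.5 CPM in pituitary libraries against a mean of 4854 CPM in brain, and the hypothalamic peptide gene oxt lay between 0.183 and 0.539 CPM. The neuron and glia sum was 56.1 to 97.5 CPM at T1 and, at the later time points in order, 43.9 to 49.6, 43.5 to 81.7 and 32.6 to 51.3 CPM, so T2 and T4 lay below T1. 6 liver genes summed to 34.5 to 55.0 CPM at T1 and, in the same order, 112 to 160, 80.4 to 86.5 and 29.2 to 49.7 CPM, against 56580 CPM in liver. 5 genes of endothelium and connective tissue summed to 75.2 to 106 CPM at T1 and 115 to 174 at T4, without overlap. 3 leukocyte genes summed to 245 to 315 CPM at T1 and to 630 CPM in T4 replicate 2. 1 of 2 red cell genes had no count in any pituitary library. The sum of both was 3.90 to 65.6 CPM at T1 and, in the same order, 10.2 to 36.4, 6.63 to 19.8 and 11.2 to 38.3 CPM. As CPM of column totals it averaged 22.9 in pituitary, 26.0 in liver and 104 in brain. 5 ovary genes summed to 1.36 to 6.5 CPM. The part of these other cells in the changes reported below was not tested.

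Few members were called across the time course. With edgeR's quasi-likelihood test over all genes, a gene was called at an adjusted p (Benjamini-Hochberg) below 0.05 and a log2 fold change beyond 1 in either direction. All 150 members were tested in every comparison. At T2 against T1, 4 members or 2.67% were called, 3 higher and 1 lower, where 1.49% of all 31997 genes tested were called. At T3 against T1, 4 members (2.67%) were called, 2 higher and 2 lower, against 1.07% of all genes. At T4 against T1, 9 members (6.0%) were called, 5 higher and 4 lower, against 1.78% of all genes. The members' share was thus above that of all genes in each comparison, on 4, 4 and 9 genes. At T3 that order turned with T1 replicate 1 left out, at 0 members against 0.248% of all genes, and with a term for replicate number, at 0 against 0.361%, where edgeR's unadjusted p was below 0.05 for 33 and 46 members. The 3 comparisons share the 4 libraries of T1 and are not independent. By direction the shares over all genes were 1.18% higher and 0.309% lower at T2, 0.828% and 0.245% at T3, and 1.35% and 0.434% at T4. All genes tested include many below the lowest member's level, and no share was taken over genes of like level.

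By adjusted p alone, without the fold limit, 9 members (6.0%) passed at T2, 12 (8.0%) at T3 and 19 (12.7%) at T4, against 5.07%, 2.61% and 5.78% of all genes. At an unadjusted p below 0.05 the members stood at 26.0%, 32.7% and 38.0%, against 25.8%, 22.9% and 26.8% of all genes. One test of all 4 time points together passed 7 members (4.67%) against 3.53% of all genes. The members' median log2 fold change was -0.10 at T2, -0.10 at T3 and -0.17 at T4, beside 0.00, -0.01 and 0.01 over all genes. In the same order, 87, 87 and 94 of the 150 members had a negative value. These were 58.0%, 58.0% and 62.7%, against 49.7%, 50.9% and 49.4% of all genes. Many members moved together, as described below, so they are not independent. 133 or 134 members stayed within a log2 fold change of 1 in each comparison (89.3%, 88.7% and 88.7%), against 95.6%, 95.8% and 94.7% of all genes. At T2, 6 members (4.00%) had all 4 libraries above those of T1 and 15 (10%) all 4 below, beside 8.20% and 7.99% of all genes. The members' counts were 13 (8.67%) and 15 (10%) at T3, beside 6.99% and 5.48%, and 12 (8.0%) and 25 (16.7%) at T4, beside 7.51% and 7.98%.

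**Figure D2:**
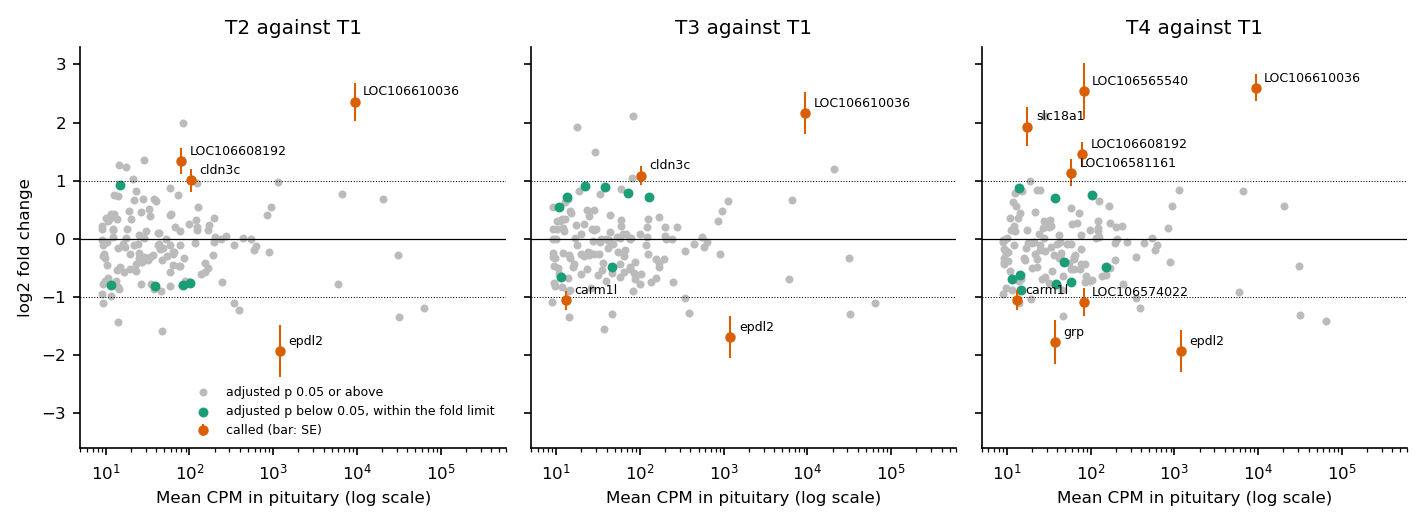
Log2 fold change of the 150 members at T2, T3 and T4 against T1, plotted against mean CPM in pituitary on a log axis; n is 4 libraries against 4, orange points are called members with bars of 1 SE, green points passed the adjusted p alone and grey points did not pass. LOC106610036 stands at 2.36, 2.17 and 2.60 and epdl2 at -1.93, -1.69 and -1.93, and most members lie between -1 and 1.

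10 members were called in at least 1 comparison and 2 of them, LOC106610036 and epdl2, in all 3. LOC106610036, a gene with the hormone annotation, rose about 5-fold by T2 and stayed high. Its TMM-scaled levels, used for all single libraries from here on, were 2748, 1888, 2223 and 1865 CPM in replicates 1 to 4 of T1. They were 16355, 11643, 10538 and 6048 CPM at T2, 9029, 16017, 4539 and 9495 CPM at T3 and 11390.2, 12302, 16901 and 11700.4 CPM at T4. Every later library lay above every T1 library, and T3 replicate 3 was the lowest of the later ones. The log2 fold changes were 2.36 ± 0.33 at T2 (adjusted p = 0.00936), 2.17 ± 0.36 at T3 (adjusted p = 0.017) and 2.60 ± 0.23 at T4 (adjusted p = 0.00203), each with 4 of 4 libraries above the T1 mean. 84.0% of the variance of its log2 level lay between time points.

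epdl2 showed the opposite course. Its T1 libraries stood at 3523, 3374, 2150.0 and 2166 CPM, and it fell to 1086, 213, 983 and 656 CPM at T2. The T3 libraries stood at 1199, 748, 1167 and 367 CPM and those of T4 at 1184, 325, 625 and 786 CPM. No later library reached the lowest T1 value, and T2 replicate 2 was the lowest of all. Its log2 fold changes were -1.93 ± 0.45 at T2 (adjusted p = 0.044), -1.69 ± 0.36 at T3 (adjusted p = 0.04) and -1.93 ± 0.36 at T4 (adjusted p = 0.0253). Its calls were lost on leaving out 1 of the 8 libraries in 6 cases for T2, 5 for T3 and 4 for T4, with log2 fold changes that stayed between -2.26 and -1.43 under every alternative.

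The other members that rose were a tight junction gene, a peptide receptor, a transporter, a predicted regulator and a gene without annotation. cldn3c, a claudin of tight junctions, stood at 45.0, 68.5, 71.8 and 49.6 CPM at T1, 88.4, 149, 114 and 119 CPM at T2, 117, 124, 108 and 149.6 CPM at T3 and 86.4, 97.6, 91.2 and 117 CPM at T4. All 12 later libraries were above the 4 of T1. It was called at T2 and T3, with log2 fold changes of 1.01 ± 0.19 at T2 (adjusted p = 0.0271) and 1.09 ± 0.17 at T3 (adjusted p = 0.0135), and at T4 it passed the adjusted p but not the fold limit, 0.75 ± 0.17 at T4 (adjusted p = 0.0367). LOC106608192, which no source used here annotates, stood at 41.6, 23.1, 49.7 and 34.2 CPM at T1, 106, 104, 75.5 and 89.5 CPM at T2 and 103, 111, 80.3 and 109 CPM at T4, and was called at both with 1.34 ± 0.22 at T2 (adjusted p = 0.0177) and 1.45 ± 0.21 at T4 (adjusted p = 0.0177). At T3 its levels were 109, 133, 40.2 and 25.7 CPM, so that replicates 3 and 4 overlapped T1 and it was not called, 1.05 ± 0.54 at T3 (adjusted p = 0.291).

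LOC106565540, annotated with G protein-coupled peptide receptor activity, had the second largest rise at T4. Its levels were 24.8, 15.6, 37.8 and 6.27 CPM at T1 and 102, 108, 172 and 108 CPM at T4, log2 fold change 2.55 ± 0.48 (SE, n = 4 against 4, adjusted p = 0.0295). At T2 (58.6 to 119 CPM) and T3 (49.0 to 152 CPM) it also lay above every T1 library, but it was not called, with 1.99 ± 0.50 at T2 (adjusted p = 0.0626) and 2.11 ± 0.59 at T3 (adjusted p = 0.0995). slc18a1, the vesicular monoamine transporter of endocrine cells, stood at 4.48, 4.89, 11.1 and 4.29 CPM at T1 and 20.1, 32.9, 23.4 and 17.7 CPM at T4, log2 fold change 1.93 ± 0.34 (SE, n = 4 against 4, adjusted p = 0.0238). T1 replicate 3 was its high T1 library and still lay below every T4 library. At T2 and T3 its changes were 1.24 ± 0.34 at T2 (adjusted p = 0.0693) and 1.92 ± 0.45 at T3 (adjusted p = 0.0634). LOC106581161, listed among the study's predicted transcription factors, stood at 25.2, 36.3, 44.3 and 25.6 CPM at T1 and 55.3, 96.8, 59.3 and 74.8 CPM at T4, log2 fold change 1.14 ± 0.23 (SE, n = 4 against 4, adjusted p = 0.0307).

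3 further members fell. carm1l, related to an arginine methyltransferase that modifies histones and other proteins, went from 25.5, 22.3, 17.3 and 19.1 CPM at T1 to 7.42, 10.8, 12.5 and 9.78 CPM at T3 and 9.44, 7.30, 11.9 and 11.5 CPM at T4. Its log2 fold changes were -1.06 ± 0.16 at T3 (adjusted p = 0.0136) and -1.06 ± 0.17 at T4 (adjusted p = 0.0206), with no overlap between groups. grp, the precursor of gastrin-releasing peptide, stood at 77.4, 85.1, 64.0 and 67.8 CPM at T1 and 41.3, 14.9, 10.1 and 19.5 CPM at T4, log2 fold change -1.77 ± 0.38 (SE, n = 4 against 4, adjusted p = 0.0389). At T2 its levels were 104, 1.97, 4.59 and 51.2 CPM, a spread that covered and exceeded the T1 range, with -0.86 ± 1.03 at T2 (adjusted p = 0.634). LOC106574022 stood at 159.8, 129, 105 and 143 CPM at T1 and 83.3, 36.4, 55.4 and 75.2 CPM at T4, log2 fold change -1.09 ± 0.24 (SE, n = 4 against 4, adjusted p = 0.0367). The summed neuron and glia markers were also below T1 at T4, 32.6 to 51.3 against 56.1 to 97.5 CPM, and their part in these falls was not tested.

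**Figure D3:**
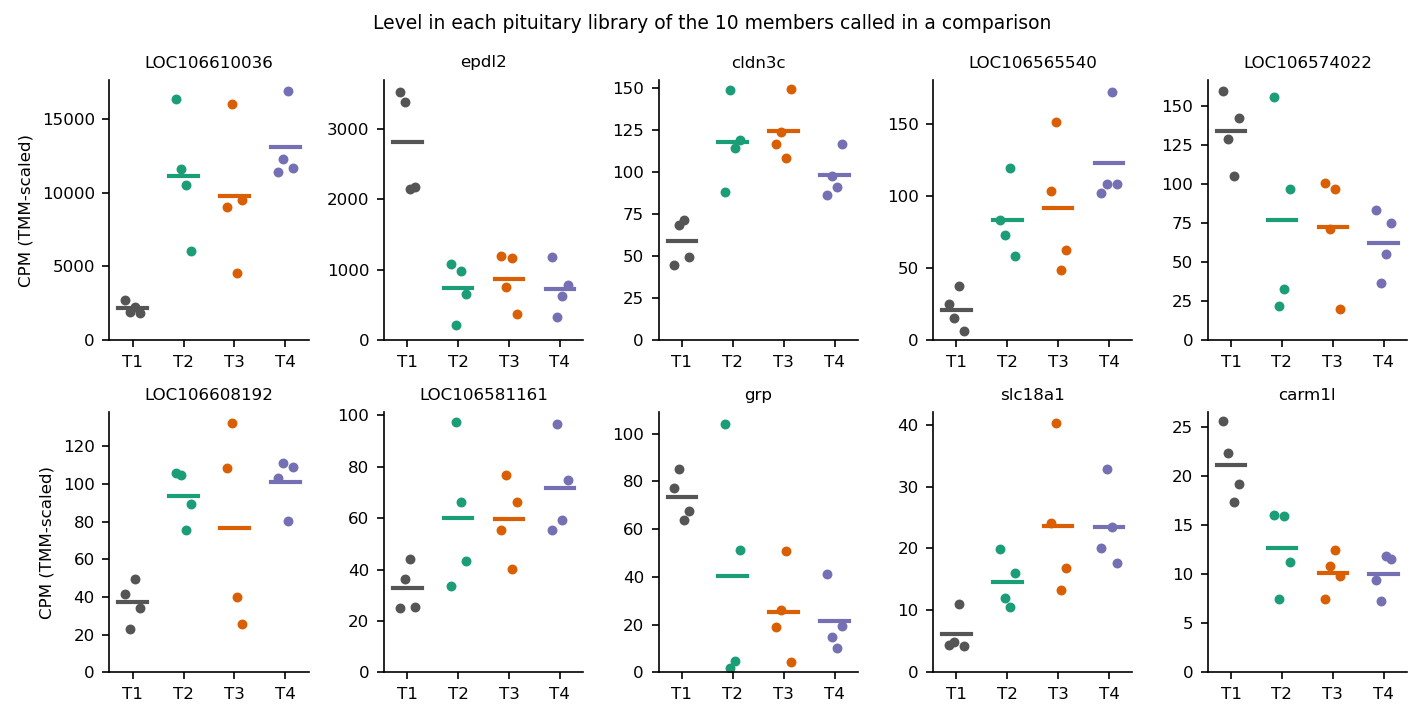
TMM-scaled CPM of the 10 members called in at least 1 comparison, in each of the 16 pituitary libraries; points are single fish, 4 per time point, and the bar is their mean, with every axis starting at 0. LOC106610036 and cldn3c lie above all T1 libraries from T2 on, epdl2 lies below them, and grp and LOC106574022 spread widely at T2.

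The calls rested on few libraries, among the members and over all genes alike. Without T1 replicate 1 the members called numbered 1 at T2, 0 at T3 and 1 at T4, where edgeR's unadjusted p was below 0.05 for 29, 33 and 43 members. Over all genes 99, 80 and 15 were called without that library, against 476, 342 and 570 with all libraries. Without T1 replicate 2 the members called were 2, 2 and 2, with 191, 156 and 119 over all genes. At T2 the count was 2 without T2 replicate 3 and 1 without T2 replicate 4, with 253 and 180 over all genes. Leaving out T3 replicate 3 raised the T3 count to 9, with 912 over all genes. Leaving out T1 replicate 3 raised it to 7, with 318 over all genes. At T4 the count was 4, 4 and 2 without T4 replicate 2, 3 or 4, with 226, 135 and 50 over all genes. LOC106610036 kept its call at T2 and T4 under all 16 alternatives to the fit and lost it at T3 without T1 replicate 1 or T1 replicate 2 and with a term for replicate number. Among the calls of single comparisons, grp lost its call in 7 of 8 cases of leaving out a library, LOC106574022 and LOC106581161 in 6, LOC106565540 in 5 and slc18a1 in 4. cldn3c lost its call in 6 of 8 cases at T2, where DESeq2 and the fit without a filter on low counts did not call it either, and in 2 at T3. carm1l lost it in 2 cases at T3 and 4 at T4, and LOC106608192 in 2 at T2 and 2 at T4. Other settings lost further calls. limma did not call carm1l at T3 or T4 or LOC106574022 at T4. The single fit over 16 libraries lost LOC106608192 at T2, epdl2 at T3, and LOC106574022 and grp at T4. Without the filter on low counts, epdl2 at T2 and LOC106565540 and grp at T4 were lost. The replicate term lost epdl2 at T2 and T3, and cldn3c and carm1l at T3.

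In the test over all 4 time points, 7 members passed with edgeR, namely LOC106610036 (adjusted p = 0.00515), cldn3c (0.00986), LOC106605317 (0.0109), carm1l (0.0265), slc18a1 (0.0311), LOC106565540 (0.0342) and epdl2 (0.0392). LOC106605317 was the member of this set that no comparison called, because its changes stayed within the fold limit. It stood at 16.9, 20.4, 13.5 and 15.6 CPM at T1 and between 8.32 and 11.9 CPM in all 12 later libraries, with log2 fold changes of -0.79 ± 0.14 at T2 (adjusted p = 0.0205), -0.66 ± 0.15 at T3 (adjusted p = 0.0448) and -0.69 ± 0.14 at T4 (adjusted p = 0.0287).

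The gene lists used here and below were matched on gene symbols alone. The 91 members with only a LOC number and the 11 without a symbol were therefore not matched by function. Among transcription factors, 5 of the 21 rows of a list of pituitary factors were members, namely pitx1, lhx3, ascl1a, insm1b and six1a. pitx1, a homeobox factor that acts early in pituitary development and on hormone promoters, was among the most even members, at 191, 216, 201 and 185 CPM at T1 and 207, 180.4, 184 and 181 CPM at T4, and its coefficient of variation over 16 libraries was 0.083. lhx3, a LIM homeobox factor needed for most hormone cell types, stood at 207, 192, 184 and 183 CPM at T1 and 152, 117, 144 and 133 CPM at T4 and fell slightly, log2 fold change -0.48 ± 0.11 (SE, n = 4 against 4, adjusted p = 0.0354). ascl1a, a proneural factor needed for pituitary cell lineages in zebrafish, stood at 161, 158, 142 and 125 CPM at T1 and 107, 61.8, 91.2 and 86.7 CPM at T2 and fell, log2 fold change -0.75 ± 0.16 (SE, n = 4 against 4, adjusted p = 0.0315). Neither passed the fold limit.

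insm1b, a zinc finger factor of endocrine differentiation, had log2 fold changes of 0.05 ± 0.16 at T2 (adjusted p = 0.871), 0.20 ± 0.13 at T3 (adjusted p = 0.353) and -0.05 ± 0.13 at T4 (adjusted p = 0.837). six1a, a homeobox factor of placode development, had its largest difference at T4, -0.65 ± 0.22 at T4 (adjusted p = 0.105). The annotation calls LOC100136798 a paired-like homeodomain factor 3 beta, and it stayed between 98.9 and 147 CPM. vax1, a homeobox factor of the ventral forebrain in vertebrates, ranged from 60.6 to 434 CPM. Of the 17 listed factors tested in each comparison, none was called at T2, where edgeR gave 8 an unadjusted p below 0.05, and DESeq2, edgeR's exact test and limma likewise called 0. At T3 and T4 1 was called, nr5a1b, which is no member. The list's median log2 fold change was -0.16, -0.11 and -0.29, beside 0.00, -0.01 and 0.01 over all genes.

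For the secretory granule, 2 members stood on a list of 29 rows for granules and prohormone cutting, pcsk2 and elapor1. pcsk2 ranged 22.4-fold between libraries, at 9713, 8081, 6544 and 12276 CPM at T1, 10026, 547, 2753 and 7909 CPM at T2, 8509, 3947, 8289 and 1896 CPM at T3 and 7384, 1002, 5578 and 5438 CPM at T4. Its lowest libraries were T2 replicate 2, T4 replicate 2 and T3 replicate 4, and each later time point also held libraries within the T1 range. It was not called, with -0.78 ± 0.70 at T2 (adjusted p = 0.515), -0.69 ± 0.43 at T3 (adjusted p = 0.362) and -0.90 ± 0.49 at T4 (adjusted p = 0.266). elapor1 stayed between 612 and 1248 CPM, with a largest log2 fold change of 0.42 ± 0.19 at T2 (adjusted p = 0.197). Of the 25 listed genes tested, syt15 was called higher in each comparison, scg2b lower at T2 and T4, and vgf lower at T4, none of them a member.

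Few members matched the lists of receptors and channels by symbol, and how many unnamed members belong to these classes is not known. None of 53 rows of a list of receptors for hypothalamic and peripheral signals was a member. edgeR called 0 of the 25, 24 and 25 tested, with an unadjusted p below 0.05 for 5, 10 and 9, while DESeq2 called 4, 2 and 1, the exact test 2, 2 and 0 and limma 0, 2 and 1. Beside LOC106565540, the members with a receptor's symbol were ret, pe2r4 and gfral. ret, the receptor kinase of the GDNF family, was even, at 184 to 286 CPM in the 16 libraries. pe2r4, a prostaglandin E2 receptor, had log2 fold changes of -0.77 ± 0.43 at T2 (adjusted p = 0.301), -0.85 ± 0.28 at T3 (adjusted p = 0.125) and -0.68 ± 0.34 at T4 (adjusted p = 0.238) and was not called. gfral, which signals with RET for the ligand GDF15 in mammals, ranged from 11.3 to 70.3 CPM.

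kcnkf, a 2-pore potassium channel, was the single member among 79 rows of ion channels and calcium handling genes, and it ranged from 24.7 to 249.9 CPM without a call. Of the 49, 50 and 51 listed channels tested, 1, 1 and 2 were called higher and none lower. A list of hormones and ligands had 14 rows and no member by symbol, although 6 members carried the hormone annotation. The member grp, a peptide precursor gene, was not on that list. edgeR called 0 of 9 at T2 with 3 at an unadjusted p below 0.05, DESeq2 and the exact test 1 each and limma 0. At T3 edgeR called 1 of 9, cartl, which was higher, while DESeq2 called 2, the exact test 4 and limma 0. At T4 edgeR called 1 of 8, smtlb, itself 1 of the dropped genes, which was lower. DESeq2, the exact test and limma each called 4 at T4.

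The members varied more between fish than all genes tested and than genes at or above the lowest member's level. That second set includes the members and was not matched to their levels. Their median coefficient of variation over the 16 pituitary libraries was 0.319, beside 0.200 over all genes tested and 0.131 over the 14511 genes at or above the lowest member's level. The share of variance lying between time points had a median of 25.2% over the members. The median was 27.5% over all genes tested and 29.2% over those 14511 genes. Groups of few fish give some such share by chance alone, and no allowance was made for this. These medians therefore cannot be read as the part owed to time. The share was above 50% in 21 members, a count not taken over all genes. The ratio of the highest to the lowest library had a median of 3.07, was below 2 for 30 members and above 10 for 26. The median SE of the members' log2 fold changes was 0.26 at T2, 0.21 at T3 and 0.22 at T4, against 0.17, 0.16 and 0.17 over all genes.

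The 2 widest ranges belonged to adjoining members without a described function. LOC106583868, a pseudogene in the annotation, ran from 1.5 CPM in T2 replicate 1 to 346 CPM in T2 replicate 3, a 230-fold range within 1 time point. Its annotated neighbour LOC106583869 ran from 0.796 to 59.5 CPM in the same pair of libraries. grp spanned 52.8-fold, from 1.97 to 104 CPM. At the other end stood pitx1, LOC106579582, the gene numbered 106571554, scel, an envelope protein of epithelia, LOC106576235, LOC106563263, ret and LOC100136798. All lay below a coefficient of variation of 0.13.

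A large group of members moved together from fish to fish. A single component took 61.0% of the variance of the members' log2 levels over the 16 libraries, and the next took 10.7%. The same share was not computed over other genes. With pcsk2 as the anchor and a Spearman correlation of at least 0.9 as the limit, both chosen after the values were seen, 12 members joined pcsk2. They were LOC100169856, vax1, kcnkf, s100z, prodhb, LOC106568494, LOC106574022, LOC106575762, LOC106575777, LOC106600720, LOC106605056 and the gene numbered 106564384. These 13 genes ranged 4.66 to 31.9-fold between libraries, and 12 of them had their lowest value in T2 replicate 2. pcsk2 was lowest there too, so this shared low point follows largely from the choice of genes. The correlations are over 16 points that share libraries, depth and scaling.

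LOC100169856, the most abundant member, stood at 140790.0, 97891, 99603 and 139897 CPM at T1, 99565, 4415, 22661 and 82367 CPM at T2, 88941, 31572, 88440.0 and 14729.9 CPM at T3 and 79425, 12505, 45598 and 40268 CPM at T4. It lay below the T1 range in every library of T3 and T4, and T2 replicate 1 reached into that range. Its log2 fold changes were -1.19 ± 0.79 at T2 (adjusted p = 0.369), -1.10 ± 0.57 at T3 (adjusted p = 0.273) and -1.42 ± 0.49 at T4 (adjusted p = 0.103). In the whole group the log2 fold changes were all negative, between -1.19 and -0.23 for T2, between -1.10 and -0.26 for T3 and between -1.42 and -0.40 for T4. The group was chosen to follow pcsk2, whose own changes were negative, so the shared sign follows largely from that choice. edgeR called 0, 0 and 1 of the 13, the call being LOC106574022, with 0, 2 and 2 at an unadjusted p below 0.05. DESeq2 and the exact test each called 0, 1 and 2, and limma called 0 in each.

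**Figure D4:**
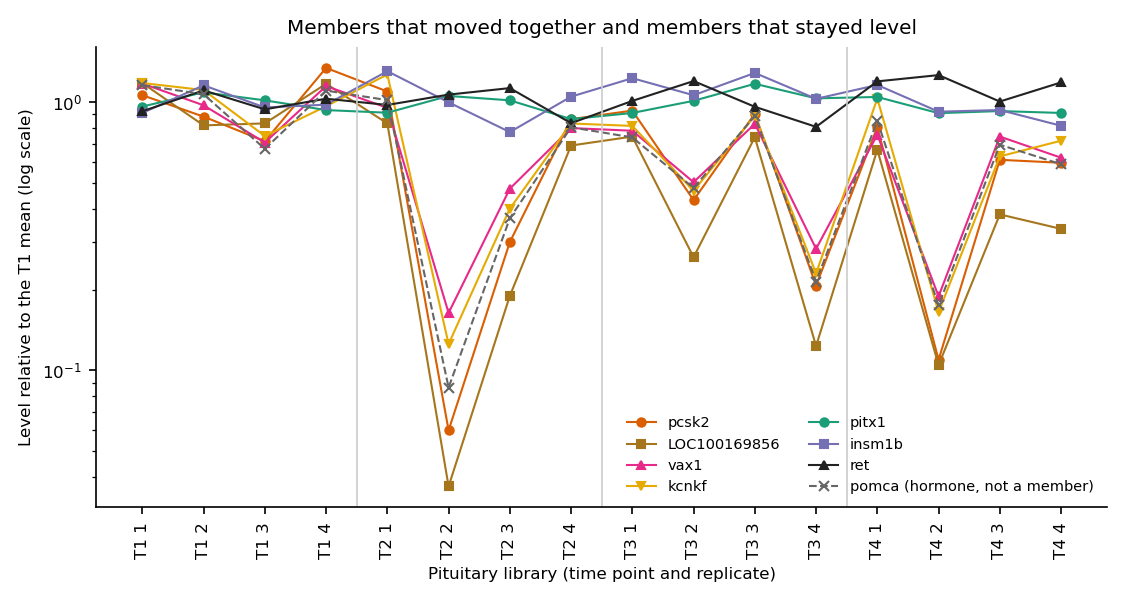
Level of 4 co-varying members (pcsk2, LOC100169856, vax1, kcnkf), 3 even members (pitx1, insm1b, ret) and the hormone gene pomca in each of the 16 pituitary libraries, as TMM-scaled CPM divided by the gene's T1 mean, on a log axis. The co-varying members and pomca drop together in T2 replicate 2, T3 replicate 4 and T4 replicate 2, where pcsk2 reads 547, 1896 and 1002 CPM, while pitx1 stays between 171 and 232 CPM.

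pomca, the precursor of adrenocorticotropic and melanocyte-stimulating hormone and 1 of the dropped genes, followed pcsk2 with a correlation of 0.94, from 13523 CPM in T2 replicate 2 to 181260 CPM in T1 replicate 1. prl, the prolactin gene, ran the other way at -0.79. Members on the opposite side of pcsk2 were LOC106581161 (-0.91), scpp1 (-0.90), LOC106562528 (-0.87), LOC106587169 (-0.85) and elapor1 (-0.75). In all, 67 members correlated with pcsk2 at 0.5 or more and 32 at -0.5 or less. These counts were not taken over other genes, so they do not set the members apart. The 3 libraries lowest in pcsk2 also had the highest scaling factors, 1.21, 1.19 and 1.18 against 0.834 to 0.948 at T1. Of the summed markers, neurons and glia correlated with pcsk2 at 0.36 and leukocytes at -0.38. The single hypothalamic peptide gene oxt correlated at 0.55, but on few counts, at 0.183 to 0.539 CPM. The other 5 lists lay between -0.13 and 0.09. Leaving T2 replicate 2, T3 replicate 4 or T4 replicate 2 out of its own comparison gave 3, 3 and 4 called members, with 263, 139 and 226 over all genes. The time test without all 3 passed 6 members (4.0%, against 1.61% of all genes). The part of these markers and factors in the pattern was not tested.

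**Figure D5:**
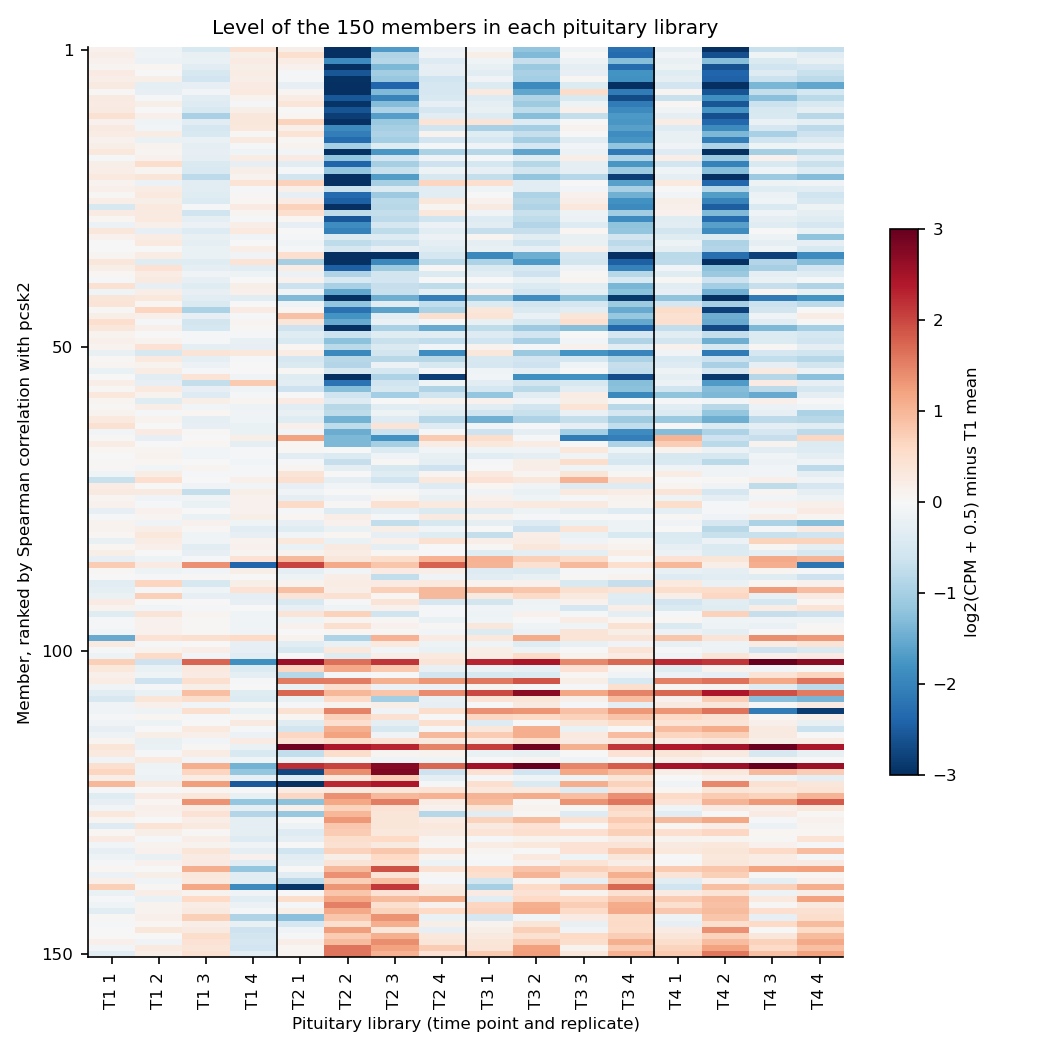
Log2(CPM + 0.5) minus the member's T1 mean for the 150 members (rows, ordered by Spearman correlation with pcsk2) in the 16 pituitary libraries (columns, grouped by time point). Red is above and blue below the T1 mean; most upper rows turn blue and many lower rows red in T2 replicate 2, T3 replicate 4 and T4 replicate 2.

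Set beside the 9 dropped hormone genes, the members divided among several of them. For each member the hormone gene of highest Spearman correlation over the 16 libraries was taken as a description, a comparison added after the values were seen. It was pomca for 62 members, prl for 26, smtlb for 17, glha1 for 15, tshba for 9, LOC100136588 for 8, fshb for 6, lhb for 4 and glha2 for 3. 69 members (46.0%) reached 0.8 with at least 1 hormone gene, beside 11.7% of 14502 genes at or above the lowest member's level, members included. The median of the highest correlation was 0.78 over the members and 0.54 over those genes. The highest values with pomca were those of vax1 (0.99), LOC106575762 (0.98) and prodhb (0.97), and crhbp, the binding protein of corticotropin-releasing hormone, followed at 0.94. With prl they were LOC106572575 (0.97) and gfral (0.91).

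Of the called members, LOC106574022 (0.89), grp (0.86) and carm1l (0.69) were also closest to pomca, and LOC106581161 (0.83) to lhb, the luteinizing hormone beta subunit. LOC106610036 was closest to glha2 (0.91), a gene of the alpha subunit that thyrotropin and gonadotropins share, as was LOC106608192 (0.68). LOC106565540 (0.88) and slc18a1 (0.74) were closest to tshba, the thyrotropin beta subunit. epdl2 was closest to smtlb (0.93), a somatolactin gene, as was LOC100136491 (0.95). cldn3c reached only 0.49, with glha1, although 78.0% of its variance lay between time points. tshba stood at 6169.7, 4594, 13836 and 2026 CPM at T1 and 26224, 19007, 36573 and 22738 CPM at T4. Among the members, LOC106610036 correlated best with LOC106565540 (0.86), LOC106586938 (0.83), slc18a1 (0.77), LOC106608192 (0.73) and LOC106581161 (0.61). LOC106565540 in turn correlated best with LOC106586938 (0.87).

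LOC106607462 was uneven at T4. Its levels were 11376, 10961, 16974 and 10685 CPM at T1, 16887, 34461, 11484 and 17811 CPM at T2, 31542, 30668, 22377 and 30425 CPM at T3 and 30538, 38058, 2863 and 1693 CPM at T4. Replicates 3 and 4 of T4 fell out of the range of the other 14 libraries. In the same pair of libraries fshb, the follicle-stimulating hormone beta subunit, stood at 86.1 and 127 CPM against 317.0 to 4563 CPM elsewhere, and LOC100136588 at 3288 and 782 CPM against 8960.5 to 43785 CPM elsewhere. The members six1a, six4a and pygma were also lowest in this pair. So were 2 summed marker genes of folliculo-stellate cells, at 69.2 and 67.1 CPM against 87.4 to 154 CPM elsewhere. As CPM of column totals this sum averaged 119 in pituitary and 1406 in brain, so the genes do not mark these cells alone. The part of these cells in the drop was not tested. LOC106607462 correlated with LOC100136588 at 0.95 over the 16 libraries. Its changes were 0.70 ± 0.38 at T2 (adjusted p = 0.281), 1.20 ± 0.30 at T3 (adjusted p = 0.0572) and 0.56 ± 0.87 at T4 (adjusted p = 0.711), none of them called.

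Of the remaining members with a hormone annotation, LOC100136491, LOC100510784 and LOC106610688 were not called in any comparison. LOC100136491 stood at 75246, 65924, 41402 and 61166 CPM at T1 and 35796, 9173, 23494 and 29144 CPM at T4, and every later library of T2, T3 and T4 lay below T1, with -1.34 ± 0.53 at T2 (adjusted p = 0.148), -1.29 ± 0.41 at T3 (adjusted p = 0.102) and -1.31 ± 0.41 at T4 (adjusted p = 0.0795). LOC100510784 overlapped T1 in each comparison, with -0.47 ± 0.47 at T4 (adjusted p = 0.546). LOC106610688 ranged from 186 to 822 CPM, with log2 fold changes between -0.08 and 0.02.

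Some members lie next to each other in the order of genes of Ssal_v3.1. LOC106568494 and LOC106568496 adjoin and followed each other at a Spearman correlation of 0.985 over the 16 libraries, at mean levels of 893 and 344 CPM, with grp 1 gene further. s100z, an S100 calcium-binding protein gene, adjoins crhbp (0.74), six1a adjoins the related homeobox gene six4a (0.61), and LOC106583868 adjoins LOC106583869 (0.82). Pairs with 1 gene between them were LOC106589803 and gfral (0.88), LOC106572941 and tmem81 (0.83), and LOC106608662 and LOC106608659 (0.77). Counting used reads of unique position, so levels of members with a near-identical copy in the duplicated salmon genome are uncertain, and adjoining genes may share reads where they overlap.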

How the data were processed

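RNA-seq counts came from 64 libraries of pituitary, brain, ovary and liver, 16 per tissue and 4 fish per time point. Per the labels and the study's methods, the authors checked reads with FastQC, aligned them with TopHat2 2.1.1 to ICSASG_v2, sorted with SAMtools 1.4 and counted uniquely placed reads per gene with HTSeq 0.7.2 with a reverse strand setting. Whether the library kit kept the strand is not given in the sources used here, so overlapping and antisense genes are uncertain. The deposited count table holds raw counts of 81574 genes, and the deposited log2 table holds log2(CPM + 1) of 46064 genes with at least 10 counts. Total counts were 23.0 to 29.0 M in pituitary, 17.5 to 51.9 in brain, 18.6 to 30.6 in ovary and 20.6 to 34.9 in liver. Reads carry no molecular identifiers.

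The 16 pituitary libraries were tested as deposited counts with edgeR 4.0.16 (R 4.3.3): filterByExpr, TMM scaling, robust quasi-likelihood F tests of T2, T3 and T4 against T1 on 8 libraries each, and 1 test of 3 time coefficients over 16 libraries. P-values were adjusted by Benjamini-Hochberg over all genes tested. Levels per library are TMM-scaled CPM, and tissue levels are CPM of column totals. Nothing in the labels ties fish across groups, and p-values measure the spread between fish within 1 management group. The members, the gene lists and the robust setting were chosen with earlier results of these data known. Members named are the 15 of highest level, those called in at least 2 comparisons, the 8 called of largest change in each direction per comparison, those on the gene lists and the 3 on each side of each limit. Others named (crhbp, gfral, ret, pe2r4, vax1, s100z and the like) were chosen after their values were seen. Names came from RefSeq (Ssal_v3.1), and annotations from the study's supplement. No coordinates are given, because builds differ, and a motif search in promoters was not run. DESeq2 1.42.0, edgeR's exact test and limma 3.58.1 on the deposited log2 values were alternatives, with RLE scaling, no filter on low counts, 1 fit over 16 libraries, a replicate term, no fold limit and each library left out. The fits were tested on simulated data.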

Additional observations from a re-analysis of the deposited data

Results flagged for a closer look

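In each group of 4 fish, the most extreme library of 33 members was set against Dixon's limit for the gap to the nearest library as a share of the group's range. Of 132 groups, 6 passed, and chance alone passes about 1 in 20 groups. LOC106607462 passed in 2 groups, with T1 replicate 3 at 16974 CPM above the next at 11376 CPM and T3 replicate 3 at 22377 CPM below the next at 30425 CPM. T4 replicate 3 held 2 of the others, LOC106610036 at 16901 CPM above 12302 CPM and LOC106565540 at 172 CPM above 108 CPM. slc18a1 stood at 11.1 CPM in T1 replicate 3, above 4.89 CPM in the next library. pitx1 stood at 207 CPM in T4 replicate 1, above 184 CPM in the next library. The calls of LOC106610036 and LOC106565540 at T4 had every T4 library above every T1 library, the flagged one included.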

How the results depend on the processing

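The members that passed an adjusted p below 0.05 in a comparison kept the sign of their change under every alternative. Among all 150 members, 44 at T2, 33 at T3 and 39 at T4 took the other sign in at least 1 alternative, none of them past that p in the reported test. Of the members called at T2, T3 and T4 (4, 4 and 9), edgeR's exact test gave 8, 13 and 14 (2.82%, 2.57% and 3.28% of all genes), and the adjusted p without a fold limit gave 9, 12 and 19. limma on the deposited log2 values gave 7 at T2, 10 at T3 and 11 at T4 (1.11%, 0.976% and 1.59% of all genes), DESeq2 gave 6, 9 and 12 (2.70%, 2.25% and 3.14%), and leaving low counts unfiltered gave 2, 5 and 7 (1.00%, 0.849% and 1.21%). The time test, which passed 7 members, passed 22 with DESeq2's likelihood ratio test (14.7%, against 9.67% of all genes) and 4 without the filter on low counts (2.67%, against 2.13%). RLE scaling gave 4, 4, 9 and 7 at T2, T3, T4 and in the time test (1.46%, 1.05%, 1.79% and 3.52% of all genes). Robust shrinkage switched off, an alternative chosen after seeing the data, gave 5, 5, 9 and 7 (1.53%, 1.06%, 1.79% and 3.52%). Leaving out each library in turn gave 1 to 6 members at T2, 0 to 9 at T3, 1 to 11 at T4 and 1 to 10 in the time test. The shares of all genes in the same fits were 0.305 to 2.61%, 0.248 to 2.83%, 0.046 to 4.02% and 0.935 to 6.61%. The members' share in the time test was below that of all genes without T1 replicate 1 (0.667% against 0.935%), T1 replicate 2 (1.33% against 1.35%) or T4 replicate 1 (5.33% against 6.61%). Without T1 replicate 1 the time test passed 1 member, without T1 replicate 2 it passed 2, and without T1 replicate 4 or T4 replicate 3 it passed 4. The cause of these shifts was not tested. Of single members' values, 80 fell to the other side of the threshold and 10 came past it. The rule itself kept 135 of the 150 members with TMM-scaled levels over 64 libraries, 132 with medians, 104 with a 10-fold ratio and 79 with a 50-fold ratio.

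Replicate numbers did not pair fish: same-numbered deviations correlated above 0.1 in 4 of 12 pairs (-0.13 to 0.22), in no comparison for all pairs. With the replicate number as a block, 4 members were called at T2, 0 at T3 and 9 at T4, and the time test passed 10. At T3, 46 members had an unadjusted p below 0.05 in edgeR, and 115 of all genes were called. The shares of all genes were 1.48%, 0.361% and 1.66% at T2, T3 and T4, and 4.65% in the time test. With 4 fish per group, the parts of counting error and of spread between fish in these comparisons were not measured.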
